A study of Mus musculus with 15 samples.

Results

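The 9 cortical layer transcription factors Bcl11a, Bcl11b, Cux1, Cux2, Fezf2, Foxp1, Foxp2, Tle4 and Lmo4 were followed across 15 RNA-seq libraries of cultured mouse neural stem and progenitor cells. They were chosen by gene symbol, and all 9 were found among the 26263 named genes counted. The cells came from the dorsal telencephalon, the wall of the forebrain that forms the cortex, of embryos at E12.5. They were expanded as neurospheres, floating colonies grown with 20 ng/ml EGF and 10 ng/ml FGF, so no cortical layers were present in the samples. The study asked what loss and gain of Kat6b, a histone acetyltransferase gene, change in these cells. On the C57Bl/6 background, 3 wild-type libraries (WT_B6, replicates 1, 2 and 4) were set against 4 Kat6b-/- libraries (KO_B6). On a mixed FVBxBALB/c background, 2 wild-type libraries (WT_FvB) were set against 6 libraries from Tg(Kat6b) embryos (Tg_FvB), a line reported as not viable when inbred. The labels name neither the promoter of the transgene nor the part of Kat6b that the knockout allele lacks.

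Layer factors are transcriptional regulators named for the cortical layer in which neurons keep them on after birth. Cux1 and Cux2 are homeodomain factors of upper layer neurons. Fezf2 and Bcl11b specify deep layer neurons that project to the brainstem and spinal cord, and Tle4 and Foxp2 mark deep layer neurons that project to the thalamus. Several of these genes are also transcribed in dividing progenitors, before any neuron is made.

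Library depth, as the total count of named genes, lay between 12336303 and 62819028, and every KO_B6 library was deeper than every WT_B6 library. Kat6b was counted at 85.1, 84.1 and 83.5 CPM in WT_B6 (counts scaled to library size with TMM factors) and at 60.9, 64.1, 66.0 and 62.3 CPM in KO_B6. It was counted at 54.4 and 51.8 CPM in WT_FvB and between 139.6 and 289 CPM in Tg_FvB. Every KO_B6 library lay below every WT_B6 library. Its log2 fold change in KO_B6 against WT_B6, -0.41 ± 0.17 (SE), missed the threshold of 0.05 (edgeR adjusted p = 0.0571). Under 9 of 25 alternative settings it was called lower. Among them were edgeR with only the compared groups fitted (adjusted p = 6.67e-05) or without Tg_FvB replicate 5 (8.06e-05), and DESeq2 (adjusted p = 0.0282). Kat6b was called higher in Tg_FvB against WT_FvB (2.19 ± 0.21, edgeR adjusted p = 2.38e-04). Between the wild types it was called lower in WT_FvB (-0.66 ± 0.21, edgeR adjusted p = 0.0157), a call lost when either WT_FvB library was left out. Sample titles in the Tg_FvB group say knockout, and 2 of its count columns, those of replicates 5 and 6, have wild-type headers. Groups follow the genotype field throughout. Several libraries of 1 group were near-identical, with a pairwise biological coefficient of variation between 0.0172 and 0.0505 against 0.115 to 0.275 for the other pairs. They were the 3 WT_B6 libraries, KO_B6 replicates 2 and 3, both WT_FvB libraries, and Tg_FvB replicates 1 to 3. They differed by more than counting noise (chi-square per gene 2.10 to 11.4) and carry different embryo numbers, so they were kept as separate libraries. Each comparison is also given with them summed, which leaves 1 profile of each wild type. One litter number and embryo number are shared by WT_B6 replicate 1 and WT_FvB replicate 2, although their backgrounds differ.

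The stem cell label held for most of its markers. Sox2 averaged 694 CPM in WT_B6, 473 in KO_B6, 426 in WT_FvB and 524 in Tg_FvB. Emx1, a defining gene of the dorsal telencephalon, was at or near 0, with 25 counts over all libraries, while its relative Emx2 averaged 32.1 to 49.5 CPM in the 4 groups. Markers of cortical projection neurons were nearly missing, since Neurod2 and Neurod6 reached at most 1.15 and 1.01 CPM and the deep layer regulator Tbr1 at most 0.317 CPM.

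Levels per length set the 9 factors apart. On the RPKM scale, which divides the CPM by the gene's length in kilobases, the LIM-domain adaptor gene Lmo4 stood highest in each group, with means of 61.7 ± 3.19 in WT_B6 (SD, n = 3), 55.6 ± 1.70 in KO_B6 (n = 4), 41.7 ± 0.698 in WT_FvB (n = 2) and 48.5 ± 2.73 in Tg_FvB (n = 6). Tle4, a Groucho-type corepressor gene, followed with 33.5, 29.6, 21.4 and 26.8 RPKM, and Cux1 with 18.0, 13.4, 10.9 and 12.4 RPKM in the same group order. No library of one of these 3 genes overlapped those of the next in any group. A middle tier held Cux2 at 1.51 to 2.79, Foxp1 at 1.41 to 1.86 and Bcl11a at 1.74 to 2.40 RPKM in group means. Their order was not fixed. Cux2 was above Bcl11a in WT_B6, while the libraries of Bcl11a and Cux2 overlapped in KO_B6 and Tg_FvB, those of Foxp1 and Bcl11a in WT_B6, and those of Cux2 and Foxp1 in WT_FvB and Tg_FvB. Bcl11b ran from 0.384 to 1.21 RPKM and Foxp2 from 0.252 to 0.449 RPKM in group means, and the libraries of this pair overlapped only in WT_FvB.

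**Figure D1:**
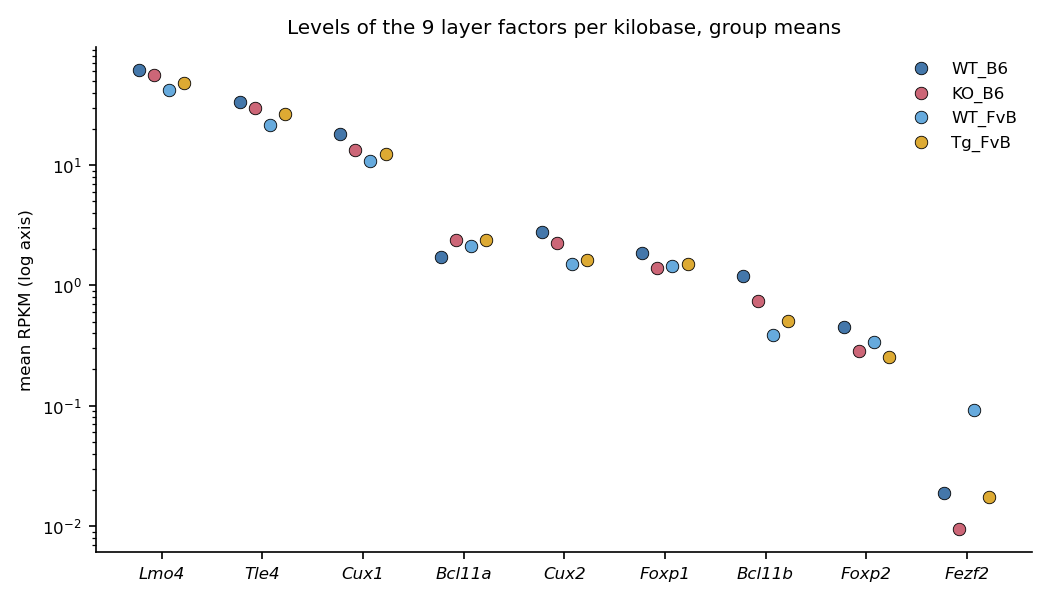
Mean level per length of each layer factor in the 4 groups, in RPKM on a log axis, with 1 point per group. Lmo4, Tle4 and Cux1 lie above 10 RPKM in each group, and Fezf2 lies below 0.1 RPKM in each.

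Fezf2, the zinc-finger gene that directs deep layer fate, was barely counted. It had 0, 4 and 0 counts in WT_B6, 1, 2, 1 and 0 in KO_B6, 4 and 5 in WT_FvB, and 0, 0, 0, 2, 2 and 0 in Tg_FvB, which makes 21 counts over all libraries. Its highest level was 0.228 CPM. The level that 3 counts would give, the limit allowed by a count of 0, ran from 0.0480 to 0.237 CPM per library. Both WT_FvB libraries (0.197 and 0.228 CPM) lay above every other library, of which Tg_FvB replicate 4 was highest (0.158 CPM). These levels rest on 4 and 5 counts, and Fezf2 was not tested between groups. It was the single factor removed by the filter on low counts, and 8 of the 9 were tested.

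In mm10 (GRCm38, RefSeq), the 3 most abundant factors lie on chromosome 3 from 144188530 to 144205255 (Lmo4, minus strand), chromosome 19 from 14448072 to 14598183 (Tle4, minus strand) and chromosome 5 from 136248135 to 136567590 (Cux1, minus strand). Cux2 lies on chromosome 5 from 121857962 to 122050415 (minus strand). Bcl11a is on chromosome 11 from 24076564 to 24173558 (plus strand) and Bcl11b on chromosome 12 from 107910403 to 108004145 (minus strand). Foxp1 and Foxp2 are both on chromosome 6, from 98925342 to 99522746 (minus strand) and from 14901349 to 15441977 (plus strand). Fezf2 is on chromosome 14 from 12338992 to 12346803 (minus strand). Exons of Bcl11a and Cux1 overlap annotated antisense genes and exons of Foxp1 overlap 2 annotated genes on its own strand. The strand setting of the counting is not given in the sources used here, so reads of these 3 genes may include the overlapping transcripts.

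Of all pairs of factors, Tle4 and Lmo4 had the most alike profiles over the 15 libraries, with a root mean square difference of centred log2 CPM of 0.113. The pair was picked for display after these values were seen. The 250 bases upstream of their annotated starts are therefore shown 5′ to 3′ on the gene's strand, from RefSeq GRCm38.p6, at chr19:14598184-14598433 (minus strand) for Tle4 and chr3:144205256-144205505 (minus strand) for Lmo4. Tle4 has 2 such windows and Lmo4 3 in the table, and those without annotated exon bases farthest upstream are printed. Capitals mark matches on either strand to the CCAAT box, to the letters GGGCGG of the GC box and to the letters CACGTG of the E-box.
Tle4: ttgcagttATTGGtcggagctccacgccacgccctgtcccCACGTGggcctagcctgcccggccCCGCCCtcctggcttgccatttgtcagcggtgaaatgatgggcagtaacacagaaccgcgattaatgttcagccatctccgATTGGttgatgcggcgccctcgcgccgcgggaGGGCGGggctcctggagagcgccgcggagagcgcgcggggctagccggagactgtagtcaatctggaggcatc
Lmo4: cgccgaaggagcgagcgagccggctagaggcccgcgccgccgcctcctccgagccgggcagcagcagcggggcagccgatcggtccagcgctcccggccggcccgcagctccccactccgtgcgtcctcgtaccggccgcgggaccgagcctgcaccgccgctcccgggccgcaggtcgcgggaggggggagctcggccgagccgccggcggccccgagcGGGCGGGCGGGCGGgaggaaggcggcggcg

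The Tle4 window, with a GC content of 65.2%, holds 2 CCAAT, 2 GGGCGG and 1 CACGTG match. The Lmo4 window, with a GC content of 82.4%, holds 3 overlapping GGGCGG matches and no CCAAT or CACGTG. Neither window holds the letters TATAAA of the TATA box, and neither holds ACAAT, the core bound by SOX factors. Over 32851 promoter windows of the same length, with a median GC content of 52.4%, 33.8% hold CCAAT, 32.7% GGGCGG, 6.02% CACGTG, 12.4% TATAAA and 27.7% ACAAT on either strand. A match is a run of letters and not a measured binding site. The table held windows for 8 of the 9 factors, and Foxp2 had none.

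In KO_B6 against WT_B6, 5 of the 8 tested factors were called lower and 0 higher, at an adjusted p under 0.05 in edgeR's quasi-likelihood test. They were Bcl11b, Cux1, Foxp1, Foxp2 and Lmo4. Over all 15261 genes tested, 20.9% were called lower and 24.8% higher, 45.8% in all. The median log2 fold change was -0.36 over the 8 factors and 0.02 over all genes. Libraries of the 2 groups did not overlap for 6 of the 8 factors, against 56.3% of all genes. In bulk RNA, fewer cells of one kind and less RNA per cell cannot be told apart.

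Bcl11b, the deep layer zinc-finger factor, fell in the knockout. It stood at 8.78, 9.45 and 10.5 CPM in WT_B6 and at 6.44, 5.29, 5.85 and 5.79 CPM in KO_B6, with every knockout library below every wild-type library. The log2 fold change was -0.72 ± 0.15 (SE), a level 0.609 times the wild type (edgeR adjusted p = 0.00142). Within litter 843 the log2 ratio of knockout to wild type was -0.69, and within litter 929 it was -0.85. Each of these litters holds 2 KO_B6 libraries and 1 WT_B6 library, for this and every other factor. The wild types used, WT_B6 replicates 2 and 4, are a near-identical pair (biological coefficient of variation 0.0172), so the litters do not give independent wild-type references. Its paralog Bcl11a, like Bcl11b a subunit gene of the BAF chromatin remodeller, did not pass the test with all groups in the fit. It stood at 13.0, 10.9 and 12.6 CPM in WT_B6 and at 11.8, 19.0, 17.7 and 18.8 CPM in KO_B6, where replicate 1 alone lay within the wild-type range (log2 fold change 0.47 ± 0.25, edgeR adjusted p = 0.134; log2 ratio 0.49 in litter 843 and 0.54 in litter 929). With only the compared groups fitted it was called higher (log2 fold change 0.46, adjusted p = 0.0376). The fits of these 2 paralogs thus had opposite signs, and the test of the difference between the genes was not made.

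Cux1, the more abundant of the 2 upper layer homeodomain genes, fell from 117, 121 and 117 CPM in WT_B6 to 93.9, 89.3, 88.1 and 80.6 CPM in KO_B6. The groups did not overlap, and the log2 fold change was -0.43 ± 0.09 (edgeR adjusted p = 0.00136), with -0.40 in litter 843 and -0.47 in litter 929. Cux2 had 14.8, 14.2 and 13.9 CPM in WT_B6 and 12.1, 12.1, 11.5 and 10.5 CPM in KO_B6. Its groups did not overlap either, but its log2 fold change of -0.30 ± 0.12 missed the threshold (edgeR adjusted p = 0.0574). RLE scaling in place of TMM put it past the threshold (adjusted p = 0.0399), as did leaving out KO_B6 replicate 1 (0.0429), Tg_FvB replicate 5 (0.0091) or Tg_FvB replicate 6 (0.0217). Its log2 ratios were -0.23 in litter 843 and -0.33 in litter 929.

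Foxp1, a forkhead repressor gene of cortical neurons, fell from 14.1, 14.7 and 13.0 CPM to 11.3, 10.9, 11.0 and 8.89 CPM, again without overlap. Its log2 fold change was -0.41 ± 0.09 (edgeR adjusted p = 0.00281), with -0.40 in litter 843 and -0.39 in litter 929. Foxp2, the related gene known for its part in speech and vocal circuits, fell from 3.43, 3.19 and 2.90 CPM to 3.17, 1.47, 1.80 and 1.60 CPM. Here KO_B6 replicate 1 lay inside the wild-type range and the other 3 knockout libraries lay below it. The log2 fold change of Foxp2 was -0.67 ± 0.25 (edgeR adjusted p = 0.0407). Without KO_B6 replicate 1 the fit was -0.99. The call was lost when any WT_B6 library, KO_B6 replicate 2, 3 or 4, or Tg_FvB replicate 2 was left out (adjusted p 0.0507 to 0.113), with litter as a covariate (adjusted p = 0.118) and with only the compared groups fitted (adjusted p = 0.0546). Foxp2 had 63 to 121 counts in the C57Bl/6 libraries. Its log2 ratios were -0.46 in litter 843 and -0.77 in litter 929.

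Tle4 and Lmo4 had the smallest fitted changes. Tle4 had 155, 154 and 149 CPM in WT_B6 and 127, 136, 141 and 135 CPM in KO_B6, without overlap, and its log2 fold change of -0.18 ± 0.08 was not called (edgeR adjusted p = 0.0695). RLE scaling called it (adjusted p = 0.0392), and so did leaving out KO_B6 replicate 3, WT_FvB replicate 2 or Tg_FvB replicate 4, 5 or 6 (0.0199 to 0.0499). Lmo4 fell from 134, 125 and 121 CPM to 114, 115, 117 and 109 CPM, a level 0.901 times the wild type (log2 fold change -0.15 ± 0.06, edgeR adjusted p = 0.0452). That call was lost without WT_B6 replicate 1 (adjusted p = 0.200), KO_B6 replicate 4 (0.107), Tg_FvB replicate 2 (0.0542) or Tg_FvB replicate 3 (0.0522), without the filter on low counts (0.0589), and with litter as a covariate (0.213). Within litters, Tle4 had log2 ratios of -0.22 and -0.12 and Lmo4 of -0.12 and -0.10, for litters 843 and 929.

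**Figure D2:**
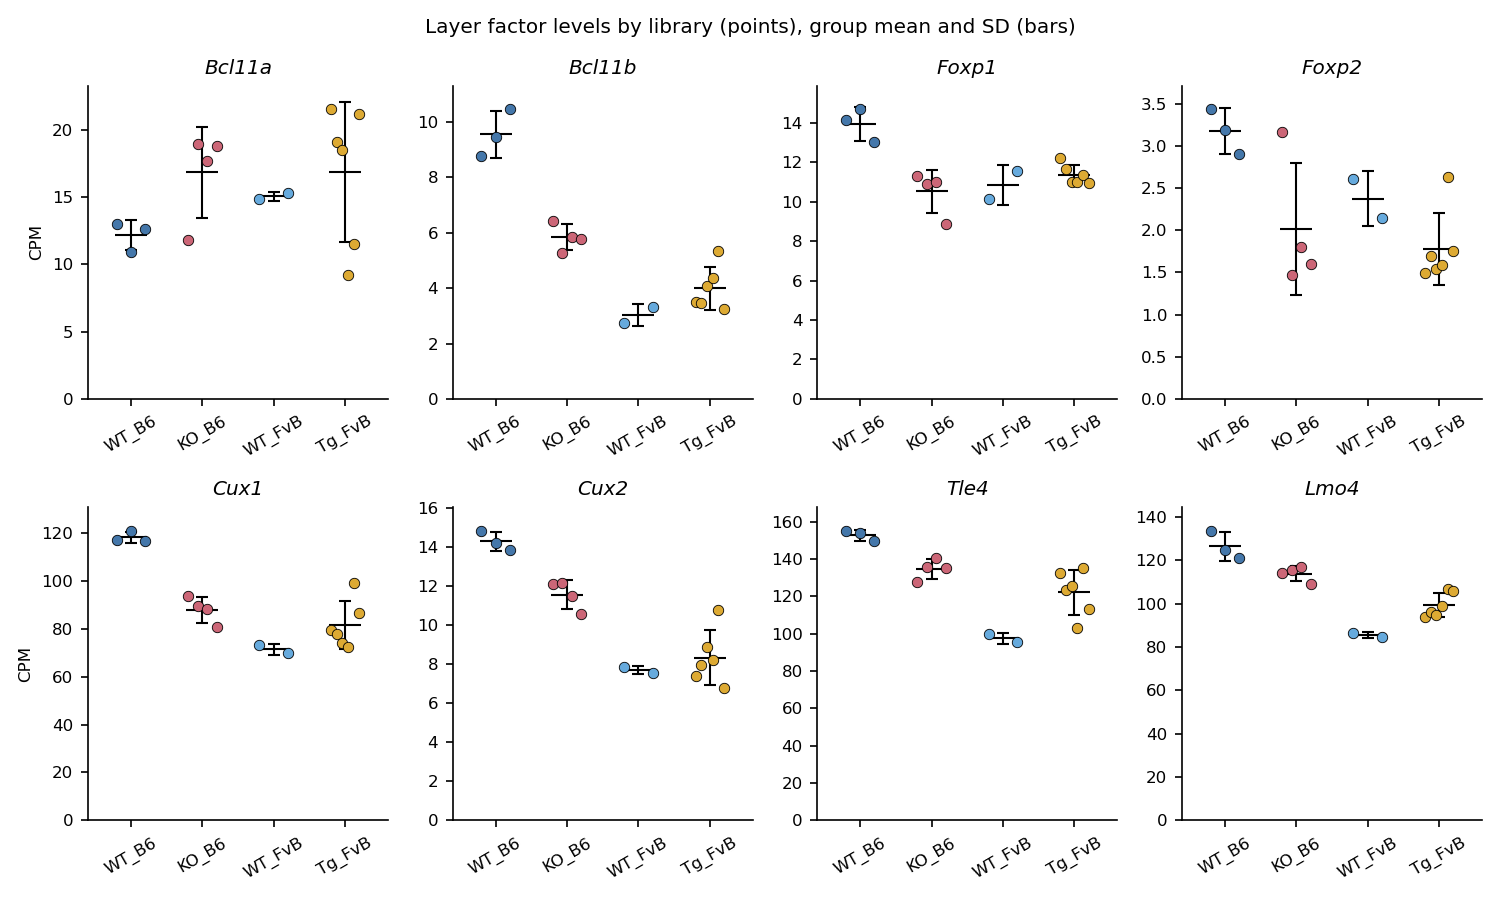
CPM of the 8 tested layer factors in each library (points), with group means (horizontal bars) and SD (vertical bars). Bcl11b ranges from 8.78 to 10.5 CPM in WT_B6 and from 5.29 to 6.44 CPM in KO_B6, while Bcl11a in Tg_FvB spreads from 9.18 to 21.5 CPM.

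With near-identical libraries summed, 0 of the 8 factors and 5 of all genes were called in this comparison, and 3 factors and 3464 genes had an unadjusted p under 0.05 in edgeR. Bcl11b then had a log2 fold change of -0.75 (adjusted p = 0.177), Cux1 -0.47 (adjusted p = 0.176) and Foxp1 -0.46 (adjusted p = 0.198). Under the other 24 alternatives these 3 genes were called each time, Lmo4 in 18 of 25 and Foxp2 in 15 of 25. DESeq2 called 7 of the 8 factors and 7208 of all genes.

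In Tg_FvB against WT_FvB, 0 of the 8 factors were called by edgeR, against 1.84% of all genes (0.681% called higher and 1.16% lower). At an unadjusted p under 0.05 there were 2 factors, Tle4 and Lmo4, and 2793 of the 15261 genes tested. DESeq2 called these 2 factors and 722 of all genes. The median log2 fold change was 0.18 over the 8 factors and 0.01 over all genes. For Tle4 and Lmo4 every transgenic library lay above both wild-type libraries, and 16% of all genes had no overlap between these groups.

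Tle4 stood at 99.7 and 95.4 CPM in WT_FvB and ran from 103 to 135 CPM, with a median of 125 CPM, in Tg_FvB. The lowest transgenic library, replicate 4, lay just above the wild types. The log2 fold change was 0.32 ± 0.09 (edgeR adjusted p = 0.0692, unadjusted p = 0.00183, DESeq2 adjusted p = 0.0167). Without Tg_FvB replicate 4 edgeR called it (adjusted p = 0.00528), as it did without Tg_FvB replicates 5 and 6 together (adjusted p = 0.0486). Lmo4 stood at 86.4 and 84.4 CPM in WT_FvB and ran from 93.9 to 107 CPM, with a median of 97.5 CPM, in Tg_FvB. Its log2 fold change was 0.22 ± 0.06 (edgeR adjusted p = 0.0923, unadjusted p = 0.00373, DESeq2 adjusted p = 0.0445), and it was called without Tg_FvB replicate 4 (adjusted p = 0.0420). Litter 844 holds both WT_FvB libraries and 2 Tg_FvB libraries, and within it the log2 ratio was 0.39 for Tle4 and 0.15 for Lmo4. Litter 873 holds Tg_FvB libraries only.

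The other 6 factors overlapped between these groups. Bcl11b had 2.76 and 3.33 CPM in WT_FvB and 3.25 to 5.34 CPM, median 3.80, in Tg_FvB (log2 fold change 0.38 ± 0.19, edgeR adjusted p = 0.288). Cux1 had 73.1 and 69.8 CPM against 72.3 to 99.1 CPM, median 78.7 (0.19 ± 0.10, edgeR adjusted p = 0.314). Cux2 had 7.83 and 7.56 CPM against 6.77 to 10.8 CPM, median 8.10 (0.11 ± 0.14, edgeR adjusted p = 0.702). Replicate 5, whose Kat6b level of 139.6 CPM was the lowest of the 6 transgenic libraries, was the highest of them for Bcl11b, Cux1, Cux2, Foxp2, Tle4 and Lmo4. Without it edgeR again called 0 of the 8 factors.

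Foxp1 had 10.1 and 11.6 CPM in WT_FvB and 10.9 to 12.2 CPM, median 11.2, in Tg_FvB (log2 fold change 0.07 ± 0.11, edgeR adjusted p = 0.771). Without WT_FvB replicate 1 its fit turned to -0.039. Foxp2, alone among the 8, had a fit below 0, with 2.61 and 2.14 CPM in WT_FvB and 1.49 to 2.63 CPM, median 1.64, in Tg_FvB (-0.41 ± 0.29, edgeR adjusted p = 0.462). Bcl11a had 14.8 and 15.3 CPM in WT_FvB, 9.18 and 11.5 CPM in Tg_FvB replicates 4 and 5, and 18.5 to 21.5 CPM in the other 4 transgenic libraries (0.17 ± 0.27, edgeR adjusted p = 0.755). Within litter 844 the log2 ratios were 0.43 for Bcl11a, 0.20 for Bcl11b, 0.14 for Cux1 and Foxp1, -0.58 for Foxp2 and -0.0015 for Cux2.

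Whether loss and gain of Kat6b moved a factor differently was tested by the difference of the 2 effects, the knockout log2 fold change minus the transgene log2 fold change. Of the 8 factors 5 were called with a difference below 0 and 0 above 0, against 17.8% and 19.6% of all genes and 37.3% called in all. The median difference was -0.44 over the 8 factors and 0.01 over all genes. Bcl11b differed by -1.10 ± 0.24 (edgeR adjusted p = 0.00302), Cux1 by -0.62 ± 0.13 (0.00283), Tle4 by -0.51 ± 0.12 (0.00396), Foxp1 by -0.47 ± 0.14 (0.0177) and Lmo4 by -0.37 ± 0.09 (0.00446). Each of these 5 genes had a knockout fit below 0 and a transgene fit above 0. Cux2 (-0.42 ± 0.19, adjusted p = 0.0974), Foxp2 (-0.26 ± 0.38, 0.622) and Bcl11a (0.29 ± 0.36, 0.547) did not pass.

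The loss and gain were measured on different backgrounds, so the difference of the 2 effects cannot be told apart from a difference between backgrounds in the response. Litter as a covariate removed the call of Lmo4 (adjusted p = 0.0840) and leaving out WT_FvB replicate 1 that of Foxp1 (adjusted p = 0.107). Cux2 gained a call without Tg_FvB replicate 6 (adjusted p = 0.0351). With near-identical libraries summed, 0 of the 8 factors and 0 of all genes were called by edgeR, 4 factors and 2803 genes had an unadjusted p under 0.05, and the adjusted p of the 5 genes ran from 0.251 to 0.345.

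**Figure D3:**
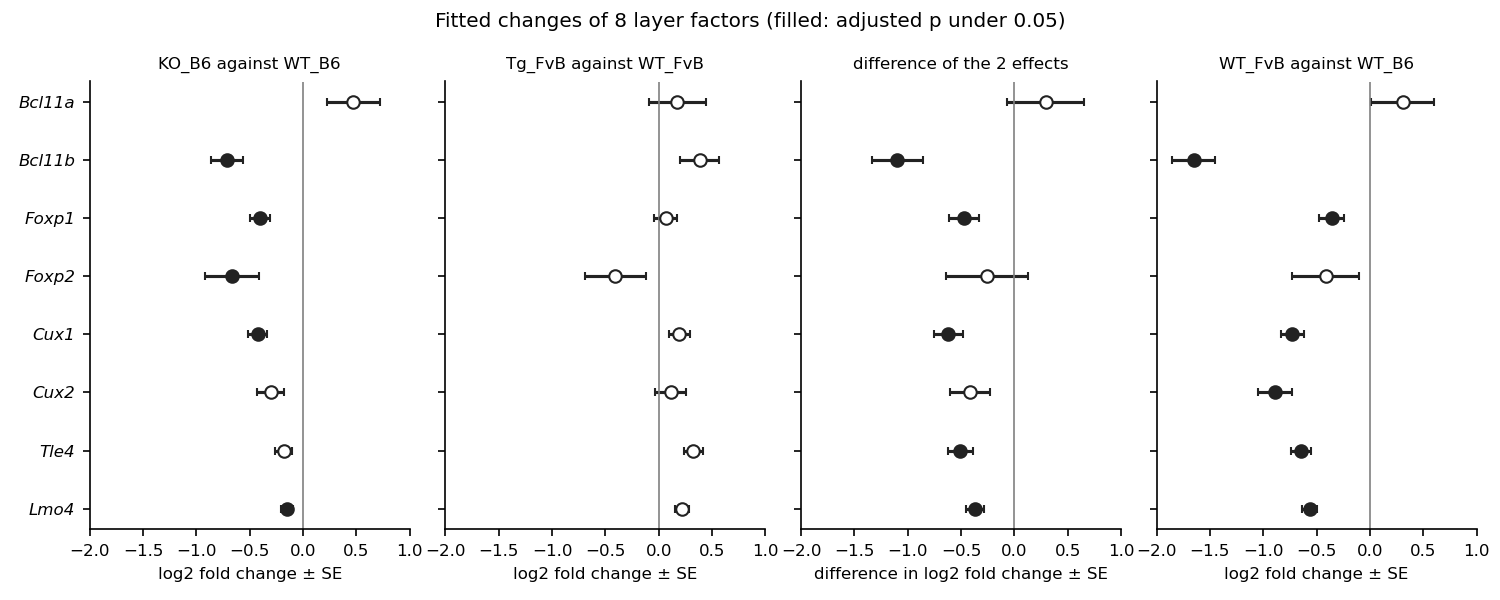
Fitted log2 fold change of the 8 tested layer factors in 3 comparisons, and the difference of the knockout and transgene effects, with SE as bars and filled points at an adjusted p under 0.05. Bcl11b lies at -0.72 in the knockout, 0.38 with the transgene and -1.65 between the wild types.

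The wild types of the 2 backgrounds differed in most of these genes. In WT_FvB against WT_B6, 6 of the 8 factors were called lower and 0 higher, against 23.5% and 25.4% of all genes, and 48.9% were called in all. For each of the 8 factors the 2 groups had no overlap, against 78.3% of all genes. The median log2 fold change was -0.61 over the 8 factors and 0.02 over all genes. The WT_B6 libraries are also those the knockout was compared with, and all WT_FvB libraries came from 1 litter, so background and litter cannot be told apart there.

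Bcl11b had the largest fitted difference of the 8, at 0.318 times its WT_B6 level in WT_FvB (log2 fold change -1.65 ± 0.20, edgeR adjusted p = 5.46e-05). Cux2 was at 0.539 times (-0.89 ± 0.16, edgeR adjusted p = 4.89e-04) and Cux1 at 0.604 times (-0.73 ± 0.11, 1.90e-04). Tle4 (-0.65 ± 0.10, 1.61e-04), Lmo4 (-0.56 ± 0.07, 6.26e-05) and Foxp1 (-0.36 ± 0.12, 0.0197) were lower too. Foxp1 lost the call without WT_FvB replicate 1 (adjusted p = 0.173) or WT_B6 replicate 2 (0.0612). Foxp2 (-0.42 ± 0.32, 0.294) and Bcl11a (0.31 ± 0.30, 0.416) did not pass. With only the compared groups fitted both were called, Foxp2 lower (adjusted p = 0.0362) and Bcl11a higher (adjusted p = 0.00437), as were all 8 factors and 10350 genes. Once near-identical libraries were summed, leaving 1 profile for each wild type, edgeR called 0 factors and 0 of all genes, while 5 factors and 3707 genes had an unadjusted p under 0.05.

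Set side by side, the group means of Bcl11b were 9.57 ± 0.85 CPM in WT_B6, 5.84 ± 0.47 in KO_B6, 3.04 ± 0.40 in WT_FvB and 4.00 ± 0.77 in Tg_FvB (SD, n = 3, 4, 2 and 6). Cux1 had 118 ± 2.38, 88.0 ± 5.49, 71.5 ± 2.31 and 81.6 ± 9.91 CPM in that order, and Cux2 had 14.3 ± 0.50, 11.6 ± 0.75, 7.70 ± 0.19 and 8.34 ± 1.39 CPM. Tle4 had 153 ± 3.00, 135 ± 5.40, 97.6 ± 3.00 and 122 ± 12.2 CPM, and Lmo4 had 126 ± 6.53, 114 ± 3.48, 85.4 ± 1.43 and 99.3 ± 5.59 CPM. For these 5 genes WT_B6 had the highest mean, KO_B6 the second and WT_FvB the lowest. The other 3 tested factors had other orders. Foxp1 had 13.9 ± 0.86, 10.5 ± 1.10, 10.9 ± 1.01 and 11.4 ± 0.50 CPM, with KO_B6 lowest. Foxp2 had 3.18 ± 0.27, 2.01 ± 0.78, 2.38 ± 0.33 and 1.78 ± 0.43 CPM, with Tg_FvB lowest, and Bcl11a had 12.2 ± 1.10, 16.8 ± 3.38, 15.04 ± 0.31 and 16.8 ± 5.20 CPM, with WT_B6 lowest.

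For each tested factor, the gene with the most alike profile over the 15 libraries was sought among 10585 genes, by the root mean square difference of centred log2 CPM. Cux1 was closest to Magi2 (0.0467), Lmo4 to Otub1 (0.0518), Tle4 to Ldlrad3 (0.0721) and Foxp1 to Mlh3 (0.0863). The distances were larger for Cux2 with Josd2 (0.108), Bcl11b with Nav3 (0.149), Foxp2 with Zcwpw1 (0.184) and Bcl11a with Pmaip1 (0.198). The factors' own spread on this scale ran from 0.172 for Foxp1 to 0.571 for Bcl11b. The distances therefore do not rank the factors by how close a match each has. These values describe the profiles in these libraries and carry no test.

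Other genes of the cortical layers were called in both directions in the knockout, with 35.7% of the upper layer and 42.9% of the deep layer genes tested called, near the 45.8% of all genes (24.8% higher and 20.9% lower). Of 15 upper layer genes 14 were tested, 3 were called higher and 2 lower, with a median log2 fold change of 0.19. Kitl, the gene of the KIT receptor's ligand, rose from 49.2 ± 2.30 to 129 ± 17.8 CPM (log2 fold change 1.39 ± 0.16, edgeR adjusted p = 1.61e-05). Lpl, a lipoprotein lipase gene, rose by 0.83 ± 0.20 (0.00315) and the transcription factor gene Mef2c by 0.38 ± 0.13 (0.0230). Mdga1, a cell surface gene of upper layer neurons, fell from 41.2 ± 2.29 to 17.9 ± 1.01 CPM (-1.20 ± 0.15, 2.84e-05). Of 24 deep layer and subplate genes 21 were tested, 5 were called higher and 4 lower, with a median of 0.00. Fam84b (1.44 ± 0.17, edgeR adjusted p = 1.95e-05) and Igfbp4, which codes for a binding protein of insulin-like growth factors (1.39 ± 0.23, 2.51e-04), rose, and the transcription factor genes Tshz2 (-0.66 ± 0.22, 0.0250) and Bcl6 (-0.66 ± 0.19, 0.0101) fell.

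Among the relatives and partners of the factors, 50.0% of the genes tested were called in the knockout, and among the BAF subunits 38.5%, near the 45.8% of all genes. Of 15 genes of Groucho, FOXP, FEZ and LIM-only relatives and LIM cofactors, 14 were tested, 3 were called higher and 4 lower, with a median log2 fold change of -0.09. The Groucho gene Tle1 fell from 114 ± 2.22 to 49.1 ± 6.22 CPM (-1.21 ± 0.15, edgeR adjusted p = 2.84e-05), a larger fitted fall than that of its relative Tle4. Tle2 (0.78 ± 0.27, 0.0261) and Tle6 (0.63 ± 0.24, 0.0438) rose, and Ssbp2, a gene of the LIM cofactor complex, fell (-0.41 ± 0.10, 0.00342). Of 26 BAF subunit genes, all tested, 6 were called higher and 4 lower, with a median of 0.02. Bcl7a fell by 0.68 on the log2 scale (SE 0.15, edgeR adjusted p = 0.00214) and Smarca2, an ATPase gene of the complex, by 0.46 (SE 0.08, 2.72e-04). Actl6a (0.44 ± 0.07, 2.96e-04) and Smarcd2 (0.41 ± 0.09, 0.00163) rose.

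In Tg_FvB against WT_FvB edgeR called 0 genes of these 4 lists, whose medians ran from 0.01 to 0.14. In the difference of the 2 effects, the upper layer list had 3 genes called above 0 and 2 below, the deep layer list 5 and 4, the relatives 3 and 3, and the BAF subunits 5 and 5. These are 35.7%, 42.9%, 42.9% and 38.5% of the genes tested, about the 37.3% of all genes. Examples were Fam84b (1.78 ± 0.23, edgeR adjusted p = 2.07e-04), Kitl (1.36 ± 0.22, 5.07e-04), Tle2 (1.31 ± 0.39, 0.0163), Tle1 (-1.19 ± 0.22, 0.00120) and Bcl7a (-1.13 ± 0.23, 0.00194).

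Between the wild types the deep layer list had 4 genes called higher and 10 lower in WT_FvB, with a median of -0.35. The share called was 66.7% in this list, 71.4% among the relatives, 42.3% among the BAF subunits and 28.6% in the upper layer list, against 48.9% of all genes. Lpar1, a lysophosphatidic acid receptor gene of the subplate, was higher (3.17 ± 0.34, edgeR adjusted p = 2.77e-05), and Cntn6 (-2.06 ± 0.30, 1.53e-04), Ldb2 (-1.75 ± 0.68, 0.0451) and Rprm (-1.40 ± 0.25, 5.48e-04) were lower. The relatives had 2 higher and 8 lower (median -0.45), among them Tle1 (-0.88 ± 0.18, 0.00133), Lmo3 (-0.72 ± 0.16, 0.00257) and Tle3 (-0.68 ± 0.10, 1.60e-04). The BAF subunits had 2 higher and 9 lower (median -0.16), led by Bcl7a (-1.31 ± 0.19, 1.49e-04). The upper layer list had 3 higher and 1 lower (median -0.05), with Plxnd1 (2.09 ± 0.42, 0.00101) and Kitl (1.62 ± 0.18, 3.09e-05) higher.

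**Figure D4:**
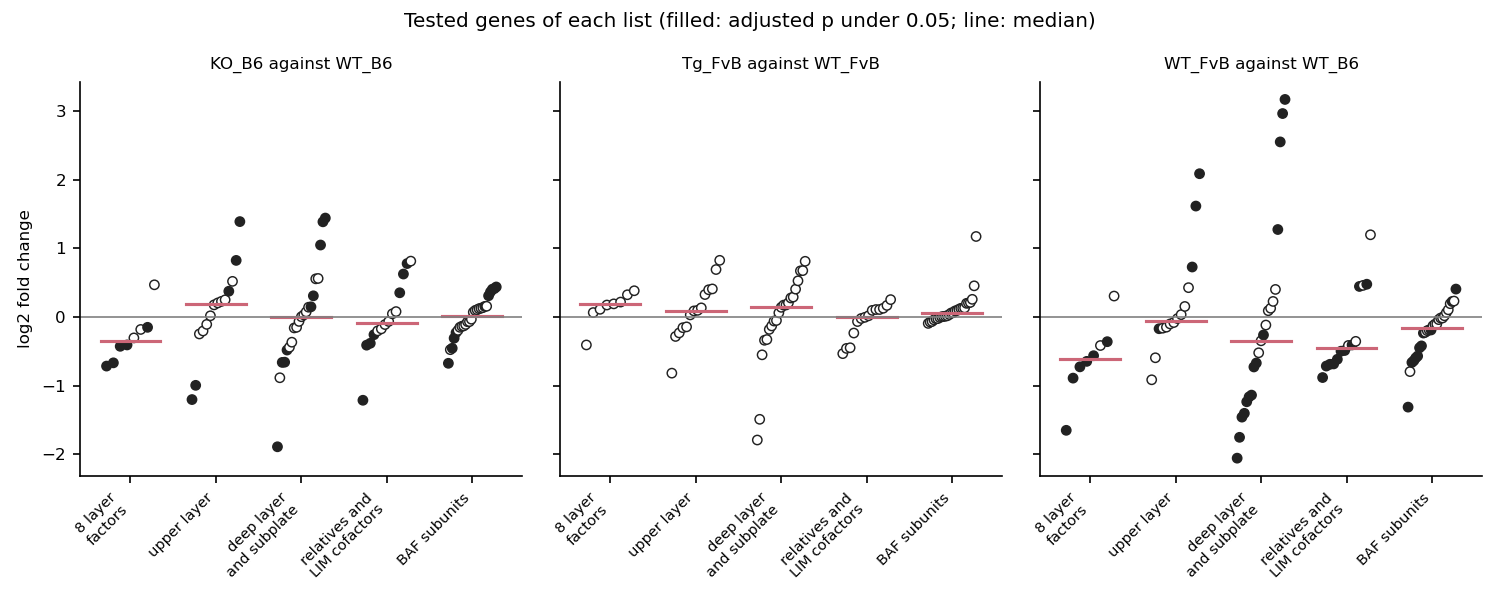
Log2 fold change of each tested gene of 5 lists in 3 comparisons, sorted within a list, with filled points at an adjusted p under 0.05 and a line at the list's median. In the knockout the 8 layer factors have a median of -0.36, while the other 4 lists lie between -0.09 and 0.19.

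Marker sums of some other cell types separated between groups, while those of others overlapped. The summed level of 7 intermediate progenitor markers was 331 to 334 CPM in WT_B6, 155 to 183 in KO_B6, 150.2 to 155 in WT_FvB and 116 to 248 in Tg_FvB. Nearly all of it was Btg2, an antiproliferative gene (323 CPM in WT_B6, 154 in KO_B6), while the defining gene Eomes stayed at or below 0.419 CPM and Neurog1 had 3 counts in all. The 14 neuron markers summed to 1401 to 1417 CPM in WT_B6, 1336 to 1432 in KO_B6, 1106 to 1150.5 in WT_FvB and 989 to 1269 in Tg_FvB, mostly Map2. Of these 14 genes, 2 (Snap25 and Nefl) were called higher and 4 (Tubb3, Dcx, Elavl3 and Elavl4) lower in the knockout, or 42.9% against the 45.8% of all genes, with a median log2 fold change of 0.03. Dcx had means of 38.5, 13.9, 11.9 and 28.3 CPM and Snap25 of 2.70, 5.46, 6.10 and 6.09 CPM in the 4 groups.

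The 7 astrocyte markers summed to 997 to 1000.2 CPM in WT_B6, 626 to 841 in KO_B6, 1482 to 1502 in WT_FvB and 1008 to 1240.4 in Tg_FvB. The 9 oligodendrocyte lineage markers summed to 3107 to 3285, 2889 to 3407, 2401 to 2423 and 2166 to 3102 CPM in the same order. The 14 neural stem cell markers summed to 9127 to 9134, 7554 to 9173, 7245 to 7449 and 7051 to 10320 CPM. The 11 ventral progenitor and interneuron markers summed to 107 to 132 CPM over all libraries. The 6 Cajal-Retzius markers summed to 18.0 to 19.2 CPM in WT_FvB and to at most 13.1 CPM elsewhere. Nearly all of the WT_FvB sum was Reln (mean 17.8 CPM), with Calb2 at 0.669 and Trp73 at 0.0966 CPM there. Over all libraries Lhx1 had 0 counts, Lhx5 3 and Ebf2 20. Microglia, endothelium, mesenchyme and choroid plexus markers each stayed below 10 CPM in sum, the first at or below 0.456 CPM. The part of these cell types in the levels of the layer factors was not tested.

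**Figure D5:**
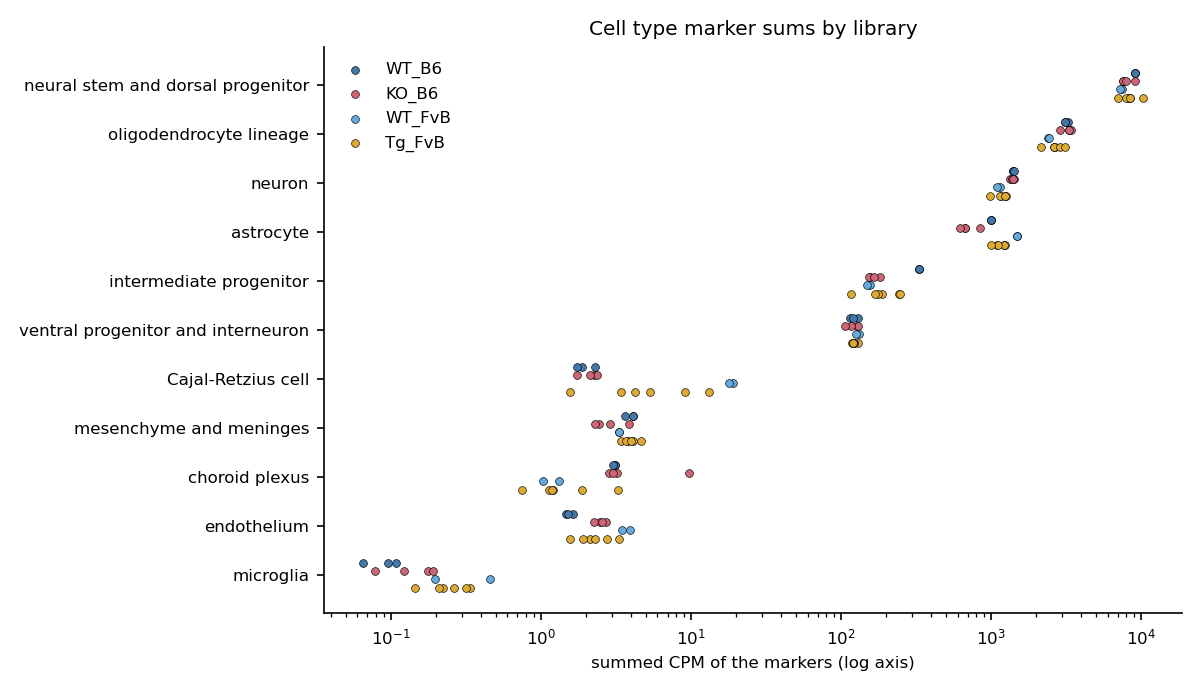
Summed CPM of each cell type's markers in each library, on a log axis, coloured by group. The intermediate progenitor sum is 331 to 334 CPM in WT_B6 and 155 to 183 CPM in KO_B6, and the microglia sum is at most 0.456 CPM.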

How the data were processed

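Total RNA of 15 libraries was made into TruSeq libraries and sequenced as paired-end reads, per the labels' protocols. The deposited files hold raw read counts per gene and a gene length in bases, made with bcl2fastq and featureCounts on mm10, per the submitters' processing notes. The aligner, versions, annotation and strand setting are not given in the sources used. The 917 entries without a gene name held 0.450% to 0.545% of the counts and were left out. Tests across genes used the quasi-likelihood F-test of edgeR (version 4.0.16, in R 4.3.3), with all 15 libraries in 1 model, 1 coefficient for each of the 4 groups, and TMM scaling. The filter filterByExpr with a minimum count of 10 left 15261 genes and removed 11002. Adjusted p-values are Benjamini-Hochberg over all genes tested, with calls under 0.05, and standard errors come from the F statistic. RPKM used the deposited length and served only to compare levels between genes. Libraries come from embryos numbered separately in the labels, but near-identical ones may share more than their group, so p-values may be too small. Same-numbered replicates across groups correlated in their deviations at -0.02 to 0.08, so numbers do not pair samples. Alternatives were RLE and upper-quartile scaling, DESeq2 1.42.0, other filters, fits on the compared groups, litter or replicate number as a covariate, near-identical libraries summed, and each library left out. The test scripts were tested on simulated data. The members and gene lists were chosen with earlier results of these data known. Beside the factors, up to 4 called genes of each list are named for a comparison, those with the largest change, at least 5 CPM in the higher group and no overlap. Of the named genes, 96.2% were matched by identifier to RefSeq coordinates of GRCm38.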

Additional observations from a re-analysis of the deposited data

Results flagged for a closer look

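The difference between the knockout effect and the transgene effect passed edgeR's test for 5 of the 8 tested layer factors, against 37.3% of all genes. Near-identical libraries were kept separate in this fit. On the log2 scale the difference was -1.10 for Bcl11b, -0.62 for Cux1, -0.51 for Tle4, -0.47 for Foxp1 and -0.37 for Lmo4. It cannot be told apart from a difference between backgrounds in the response. Across 40 groups of values checked for a single library far from the others, 3 stood out, and chance alone flags about 1 in 20 groups. Foxp2 was at 2.63 CPM in Tg_FvB replicate 5, above the other 5 transgenic libraries, which ran from 1.49 to 1.75 CPM. The summed choroid plexus markers were at 9.79 CPM in KO_B6 replicate 4. The summed ventral progenitor and interneuron markers were at 130.6 CPM in Tg_FvB replicate 1.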

How the results depend on the processing

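Of 776 log2 fold changes of the 8 tested layer factors under the alternatives, 775 kept their direction, and the exception was Foxp1 with the transgene without WT_FvB replicate 1 (-0.039, with a range up to 0.16 when single libraries were left out). In the knockout comparison the count of 5 factors became 3 with litter as a covariate and 0 with near-identical libraries summed, where 5 of all genes were called, and it ran from 3 to 7 with single libraries left out. Those giving 3 were WT_B6 replicate 1, KO_B6 replicate 4 and Tg_FvB replicate 2. Of all genes 5266 were called with litter and 5550 to 7528 with single libraries left out. WT_B6 replicate 1 is the only C57Bl/6 library of its litter, so the fit with litter takes no knockout effect from it. That fit and the one without this library are therefore not separate checks. In the transgene comparison the fit with litter rests on the 2 WT_FvB and 2 Tg_FvB libraries of litter 844. The fit with the replicate number as a block takes its transgene effect from the same libraries, since the other Tg_FvB replicates have no same-numbered WT_FvB library. Both pairs are near-identical (biological coefficient of variation 0.0317 in WT_FvB and 0.0415 in Tg_FvB), and replicate numbers do not pair samples. Calls in the block fit therefore leave out the spread of the other Tg_FvB libraries. With the transgene the count of 281 genes became 722 with DESeq2, 10 with only the compared groups fitted, 10 with litter, 1577 with the replicate number as a block, 0 with near-identical libraries summed (471 at an unadjusted p under 0.05), and 638 without Tg_FvB replicates 5 and 6. It ran from 2 to 1763 with single libraries left out, 2 without either WT_FvB library and 1763 without Tg_FvB replicate 4. The 0 factors called there became 2 with DESeq2, 1 with the block (Tle4, adjusted p = 0.00881), 1 without Tg_FvB replicates 5 and 6, and 0 to 2 with single libraries left out. For the difference of the 2 effects, 5696 genes became 2862 with litter and 0 with near-identical libraries summed, and 3598 to 6761 with single libraries left out, and the 5 factors became 0 when summed and 4 to 6 with single libraries left out. Between the wild types, summing took 7456 genes and 6 factors to 0 and 0, and single libraries left out gave 5055 to 7933 genes and 5 to 6 factors. Summing leaves 1 profile of each wild type, whose spread is taken from the other groups. In that fit the rise of Kat6b itself in Tg_FvB against WT_FvB, 2.12 on the log2 scale, was not called either. A missing call there thus does not show a missing change. The replicate number could be fitted as a block in each background but not between the wild types, nor could litter. The causes of the other changes were not tested. Depth limits Fezf2 (21 counts) and Foxp2 (20 to 121 counts per library).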
